A study of Homo sapiens with 6 samples.

Results

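The proteasome subunit genes were taken as every row of the count table whose gene name is PSM, a letter from A to G and a number. The rule found 50 of 57773 rows, which carry 48 different names because PSMA1 and PSMA2 each have a second row. SW872, an established human liposarcoma line, that is, a tumor line of fat tissue, gave RNA for 6 libraries. Replicates 1 to 3 of the Apatinib group received 18 μM of the drug over 24 h, and controls 1 to 3 received none. Apatinib is an inhibitor of VEGF receptor tyrosine kinases. The labels name neither a vehicle nor a culture time for the control. The paper's methods call the replicates biological, but neither they nor the labels say whether each came from a separate culture, so every p value below measures the spread between these samples, which may be technical.

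The Apatinib libraries held 18081919, 17275850 and 17352210 counts, and those of the control 17043314, 18139437 and 22067558. Controls 1 and 2 were unusually close to each other. Their chi-square per gene, which is 1 where only sampling noise separates 2 libraries, was 2.27 over all genes and 1.83 over the proteasome genes, while the other pairs within a group lay between 18.2 and 44.5 over all genes and between 15.9 and 28.1 over the proteasome genes. For PSMA2, PSMA3, PSMB8, PSMB9, PSMC6, PSMD12, UCHL5, UBA6, TAP1 and the markers past the FDR limit, the FDR with both summed as 1 sample is therefore also given. The libraries also differed in composition. The mitochondrial share of the counts was 5.69%, 5.16% and 5.5% with Apatinib against 4.47%, 4.71% and 5.11%, and the share of the 10 most abundant genes was 7.02%, 6.33% and 6.57% against 5.46%, 5.6% and 6.14%. Neither overlapped between the groups, control 3 was nearest to the Apatinib group in both, and their part in the values below was not tested.

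The label of the cells was checked against markers. All 6 mesenchymal markers passed the filter on low counts, and their most abundant gene was VIM, with a mean FPKM (fragments per kilobase of exon at equal sequencing depth) of 1035. Of 6 adipocyte markers 3 passed, with PPARG at a mean FPKM of 21.7, while CEBPA, FABP4 and ADIPOQ had 0 counts in every sample. CDK4, often amplified in liposarcoma, had a mean FPKM of 64.8 and MDM2 one of 4.84. Of 7 blood cell markers 1 passed, CD14, with 65, 68 and 40 counts against 73, 94 and 107, and PTPRC and LYZ had 0 counts. CD68 had at most 1 count but an FPKM of 11.8, 8.56 and 6.78 against 3.3, 1.79 and 2.85, higher with Apatinib without overlap, so that 0 in the count table is not absence for every gene. The blood markers together reached 13.4, 10 and 7.78 FPKM against 5.07, 3.77 and 4.71. None of 4 epithelial markers passed, and 2 endothelial markers did at low levels, of which VWF rose (log2 fold change 1.52, FDR = 0.0386, edgeR) and CDH5 fell (−1.22, FDR = 0.0242). LPL of the adipocyte markers rose (0.84, FDR = 0.0237), as did COL1A2 (0.46, FDR = 0.0394) and FN1 (0.44, FDR = 0.0473) of the mesenchymal markers. All 5 calls were lost without control replicate 1 (FDR = 0.146 for VWF, 0.102 for CDH5, 0.0784 for LPL, 0.181 for COL1A2 and 0.184 for FN1), and also without control replicate 2 (0.142, 0.0618, 0.0831, 0.186 and 0.2) and with controls 1 and 2 summed (0.121, 0.0719, 0.0807, 0.173 and 0.186). Without Apatinib replicate 1 the FDR was 0.114 for VWF, 0.0632 for CDH5, 0.116 for COL1A2 and 0.0834 for FN1, without Apatinib replicate 3 it was 0.1 for VWF, and without control replicate 3 it was 0.0527 for CDH5 and 0.0849 for FN1. With limma on log2(FPKM + 1) the FDR was 0.0821 for LPL, 0.0743 for COL1A2 and 0.0683 for FN1, and with the replicate block it was 0.0857 for COL1A2 and 0.121 for FN1. FN1 also lost its call with at least 10 counts in every sample (0.056) and after a correction for GC content (0.0669). The summed FPKM of the mesenchymal markers was 1688, 1487 and 1521 under Apatinib against 1271, 1201 and 1310, without overlap. Most of this sum was VIM, at 1263, 995 and 1141 against 933, 881 and 995, for which the groups overlapped. Of the 6 mesenchymal markers 5 had a log2 fold change above 0 and 1, COL1A1, below (−0.083, FDR = 0.74, edgeR). The part of these marker differences in the values below was not tested.

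The proteasome degrades proteins that carry ubiquitin chains. Its core particle is a barrel of outer rings of alpha subunits (PSMA), which gate the entrance, and inner rings of beta subunits (PSMB), some of which cut peptide bonds, and its regulatory particle of ATPases (PSMC) and non-ATPase subunits (PSMD) recognizes, unfolds and feeds the substrate, while PSME proteins form other caps. Interferon induces PSMB8, PSMB9 and PSMB10, which replace the constitutive catalytic subunits PSMB5, PSMB6 and PSMB7 to form the immunoproteasome, a source of peptides for antigen presentation.

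Of the 50 rows, 46 passed the filter and were tested. The other 4, with 0 or 1 count in each sample, were PSMA8, which is the alpha subunit of the testis, PSMB11, which is the beta subunit of the thymus, and the second rows of PSMA1 and PSMA2. A DEG needed an FDR under 0.05 (quasi-likelihood test of edgeR, Benjamini-Hochberg over all 16290 genes tested) together with a log2 ratio of Apatinib to control, called the fold change below, that was larger than 0.5 in size. By this rule 1 of the 46 proteasome genes was a DEG, against 11.5% of all genes tested. It was lower with Apatinib (5.48% of all genes), and 0 were higher (5.97% of all genes). DESeq2 and limma also gave 0 higher DEGs among them, and at an unadjusted p under 0.05 in edgeR 1 was higher (2.17%, against 15.3% of all genes). At an FDR under 0.05 alone the count was again 1, against 12.9% of all genes.

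In the other direction, 9 proteasome genes were lower at an unadjusted p under 0.05 (19.6%, against 15.3% of all genes). The CPM values (counts scaled to the library size with TMM factors) of the groups did not overlap for 11 genes that were lower with Apatinib (23.9%, against 15.7% of all genes) and for 2 that were higher (4.35%, against 17.5% of all genes). By FPKM, 7 were lower without overlap (15.2%, against 12.1% of all genes) and 6 higher (13%, against 19.6%). The log2 fold change was below 0 for 28 of the 46 genes (60.9%), with a median of −0.055, and for 49.7% of all genes, with a median of 0.0028. With all 6 samples the share of DEGs among the proteasome genes thus lay below that among all genes. That share depends on the controls, since 275 of 16708 genes were DEGs without control replicate 1, 300 of 16698 without control replicate 2 and 292 of 16731 with controls 1 and 2 summed, with 0 proteasome genes among them in each, so that the difference in shares is not seen there. FPKM, averaged over the 6 samples, ranged from 8.58 for the assembly chaperone PSMG4 to 201 for the alpha subunit PSMA7, with a median of 54.1.

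**Figure D1:**
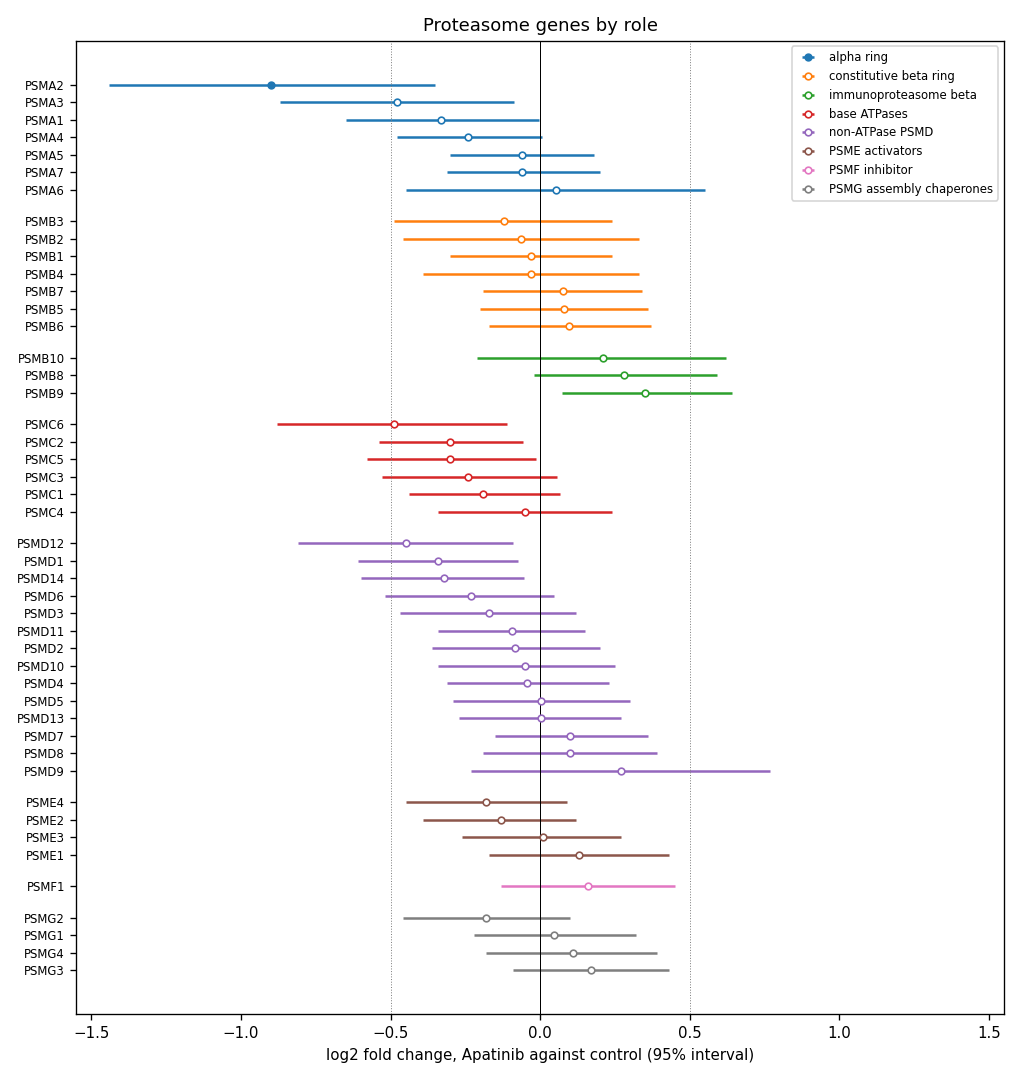
Log2 fold change (Apatinib over control, edgeR) of each proteasome gene tested, with 95% intervals, grouped by role; the filled point is the DEG and dotted lines mark 0.5 in size. PSMA2 had the lowest value, −0.90, and all 6 ATPases lay below 0.

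The core had a median log2 fold change of −0.032 (10 of 17 genes below 0), or −0.061 without PSMB8, PSMB9 and PSMB10 (10 of 14), and the regulatory genes had one of −0.11 (17 of 24), beside 0.0028 over all genes. The core median changed sign between settings, from −0.078 to 0.053, and was above 0 with limma on FPKM (0.0088), without Apatinib replicate 2 (0.053), without control replicate 3 (0.021) and after a correction for GC content added after seeing the data (0.0017). The regulatory median was below 0 in all settings, from −0.17 to −0.073. The summed FPKM was 1330 ± 105 (mean ± SD) with Apatinib and 1341 ± 43.3 in the control for the core, and 1155 ± 41.6 and 1227 ± 37.8 for the regulatory genes. At an unadjusted p under 0.05, 6 regulatory genes were lower (25%) and 3 core genes (17.6%), against 15.3% of all genes, and 0 regulatory genes and 1 core gene (5.88%) were higher, against 15.3%. The difference between the core and the regulatory medians was not tested. In bulk samples, fewer cells and less RNA per cell cannot be told apart, and a share of all counts does not show the amount per cell.

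Within the alpha ring, 6 of 7 genes had a log2 fold change below 0, with a median of −0.24. PSMA2, an alpha subunit of the ring that gates the core, had, under Apatinib, 37, 55 and 67 counts (3.03 ± 0.844 CPM) and, without it, 109, 113 and 98 (5.66 ± 1.02 CPM). All 3 Apatinib samples lay below all 3 controls. PSMA2 fell, with a log2 fold change of −0.90 (95% interval −1.44 to −0.35) and an FDR of 0.0388 in edgeR, the only DEG among the proteasome genes. Its FDR ranged from 0.00503 to 0.153 over the alternatives, and the call was lost without Apatinib replicate 1 (FDR = 0.114), without Apatinib replicate 2 (0.0641), without control replicate 1 (0.151), without control replicate 2 (0.153) and with controls 1 and 2 summed (0.134). By FPKM, PSMA2 measured 60.1, 53.7 and 69.8 against 77.6, 77.9 and 72.6, again without overlap, with a log2 fold change of −0.32 and an FDR of 0.125 in limma.

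PSMA3, another alpha subunit, had the next lowest value of the ring, with 1564, 1105 and 1864 counts against 2260, 2303 and 2316. In CPM these were 91.0, 62.4 and 107 against 130, 127 and 106, so Apatinib replicate 3 lay just above control 3 and the groups overlapped. Its log2 fold change was −0.48 with an FDR of 0.096 in edgeR (range 0.0219 to 0.625). The FDR was 0.045 without Apatinib replicate 3 and 0.273 with controls 1 and 2 summed, and the log2 fold change was −0.29 without Apatinib replicate 2 and −0.13 (FDR = 0.625) after the GC correction. PSMA1 had a log2 fold change of −0.33 (FDR = 0.157). PSMA6 was the alpha subunit with the highest log2 fold change, 0.052 (FDR = 0.902), with 49, 55 and 48 counts against 43, 61 and 56, and the groups overlapped. Its value was −0.03 when control 1 was left out and 0.20 without control replicate 2. By FPKM, at 97.6, 98.5 and 94.3 against 78.3, 62.3 and 98.3, the groups also overlapped, through control 3, and limma gave a log2 fold change of 0.30 (FDR = 0.238).

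PSMA1, PSMA2 and PSMA6 had far fewer counts than their FPKM would give. The length that the library-scaled counts and the FPKM imply together was 140 bases for PSMA1, 62 for PSMA2 and 33.6 for PSMA6, or 11%, 5.72% and 3.82% of the median length of their transcripts in GENCODE 29 (1266, 1085 and 879 bases). For PSMB10, a beta subunit of the immunoproteasome, this share was 37.4%, and for PSMD9, an assembly chaperone of the ATPase ring, 36.6%. These 5 of the 45 proteasome genes with a known length were under 50% (11.1%), as were 433 of 12112 genes with an FPKM above 1 (3.57%), and the median was 164% for the proteasome genes and 171% for all. For these 5 genes the counts and the FPKM thus imply a length far below that of the transcript. Other proteasome genes lay far above it, such as PSMD5 at 452% and PSMF1 at 396%. Part of the exons of all 5 lies within those of other genes on the same strand in GENCODE 29: 24.7% of the bases for PSMA1, 14.6% for PSMA2, 14.1% for PSMA6, 34.8% for PSMB10 and 19.9% for PSMD9. Smaller overlaps of this kind were also present for PSMB9 (5.66%), PSMF1 (2.95%) and PSME2 (2.15%), which are not among the 5. The part of this overlap in the low counts was not tested, and the single DEG, PSMA2, is among the 5 genes.

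**Figure D2:**
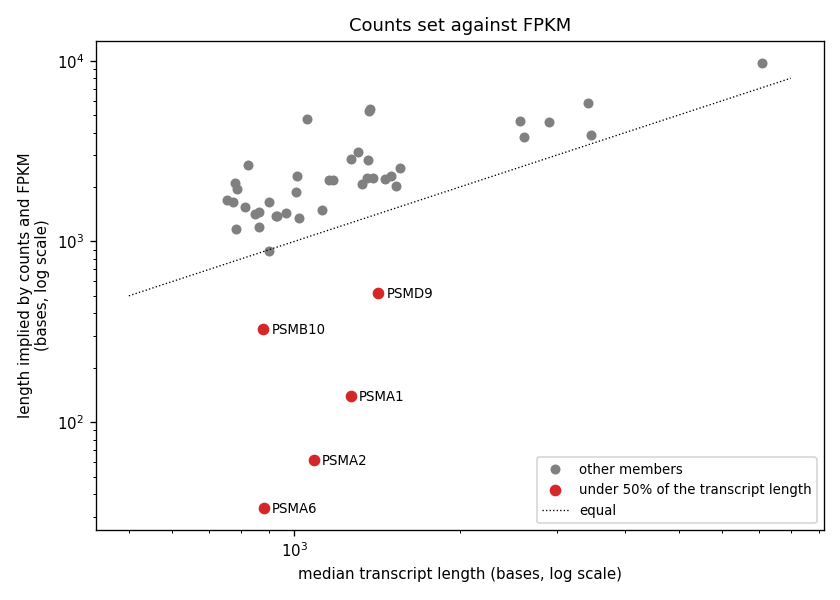
Length implied by counts and FPKM against the median transcript length in GENCODE 29, in bases on log scales, for the 45 proteasome genes tested with a known length. The line marks equal lengths. The 5 named genes lie under 50% of their transcript length, with PSMA6 lowest at 3.82%.

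The constitutive beta subunits had a median log2 fold change of −0.031, with 4 of 7 below 0 and no DEG, and their summed FPKM was 548 ± 67.3 with Apatinib and 549 ± 39.4 in the control. PSMB3, which has no catalytic site, had the lowest log2 fold change of them, −0.12 (FDR = 0.659), with 138, 83.3 and 115 CPM against 114, 118 and 134. The groups overlapped, and Apatinib replicate 2 alone lay far below the rest, so that the value was 0.053 without Apatinib replicate 2 and −0.30 without Apatinib replicate 1. PSMB6, the subunit with caspase-like activity, had the highest log2 fold change, 0.097 (FDR = 0.634), which was 0.036 without Apatinib replicate 1 and 0.17 without control replicate 3. The catalytic PSMB5, PSMB6 and PSMB7 are described below beside the subunits that replace them.

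PSMB8, PSMB9 and PSMB10 all had log2 fold changes above 0, with a median of 0.28 that ranged from 0.16 to 0.42 over the settings. Together they reached 163, 155 and 140 FPKM under Apatinib against 109, 114 and 133 without it (153 ± 11.3 and 118 ± 12.4). Every Apatinib sample lay above every control, and control 3 was the nearest to the Apatinib samples, as it was in the mitochondrial share and the share of the most abundant genes. None of the 3 genes passed the FDR limit in edgeR.

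The stretches of 250 bases before the starts of these genes and of PSMA2 are shown because PSMB8, PSMB9 and PSMB10 had values above 0 together and PSMA2 was the only DEG. They were taken from RefSeq (build GRCh38.p14) at chr7:42932175-42932424 on the minus strand for PSMA2, chr6:32844680-32844929 and chr6:32844048-32844297 on the minus strand for the first and second start of PSMB8, chr6:32853942-32854191 on the plus strand for PSMB9 and chr16:67936851-67937100 on the minus strand for PSMB10. Each is written 5′ to 3′ along the strand of the gene. Capitals mark matches on either strand to the motifs TGACNNNGC (antioxidant response element core), TTCNNNGAA (GAS element), GAAANNGAA (interferon-stimulated element) or CCAAT.
PSMA2: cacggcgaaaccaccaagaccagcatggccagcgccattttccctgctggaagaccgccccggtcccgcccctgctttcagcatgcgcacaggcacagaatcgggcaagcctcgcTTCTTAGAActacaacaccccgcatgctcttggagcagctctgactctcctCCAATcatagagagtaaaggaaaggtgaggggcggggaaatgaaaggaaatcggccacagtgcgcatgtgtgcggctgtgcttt
PSMB8 start 1: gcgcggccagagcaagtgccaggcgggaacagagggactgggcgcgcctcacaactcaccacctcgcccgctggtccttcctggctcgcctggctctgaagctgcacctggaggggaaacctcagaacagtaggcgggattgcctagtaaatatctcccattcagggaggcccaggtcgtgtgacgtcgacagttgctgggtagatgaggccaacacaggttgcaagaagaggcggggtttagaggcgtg
PSMB8 start 2: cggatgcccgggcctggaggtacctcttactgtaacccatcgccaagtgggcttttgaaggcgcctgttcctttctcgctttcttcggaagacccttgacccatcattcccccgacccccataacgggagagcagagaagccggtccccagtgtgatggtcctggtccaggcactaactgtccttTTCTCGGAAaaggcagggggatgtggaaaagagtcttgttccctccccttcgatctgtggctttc
PSMB9: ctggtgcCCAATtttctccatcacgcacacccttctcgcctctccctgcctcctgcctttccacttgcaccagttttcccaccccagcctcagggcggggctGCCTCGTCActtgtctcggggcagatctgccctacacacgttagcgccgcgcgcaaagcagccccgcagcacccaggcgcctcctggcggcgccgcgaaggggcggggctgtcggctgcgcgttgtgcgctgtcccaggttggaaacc
PSMB10: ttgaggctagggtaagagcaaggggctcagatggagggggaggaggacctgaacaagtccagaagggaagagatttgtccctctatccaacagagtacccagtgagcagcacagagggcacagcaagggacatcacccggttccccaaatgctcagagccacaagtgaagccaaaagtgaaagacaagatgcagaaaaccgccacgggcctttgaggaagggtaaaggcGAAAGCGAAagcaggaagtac

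PSMA2 holds a GAS match, TTCTTAGAA, and a CCAAT. The first start of PSMB8 holds none of the 4 motifs, and the second holds the GAS match TTCTCGGAA. An interferon-stimulated match of the second start, TTCGCTTTC on the opposite strand, reaches past the start and is therefore not in capitals. PSMB9 holds a CCAAT and, on the opposite strand, the antioxidant match GCCTCGTCA, and PSMB10 holds the interferon-stimulated match GAAAGCGAA. PSMB9 and the nearest start of TAP1, a peptide transporter gene, lie 488 bases apart on opposite strands. A match is a description of letters and no binding was measured, and no match says only that these letters are absent from the window.

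PSMB8, which takes the place of the chymotrypsin-like subunit PSMB5, had an FPKM of 61.6, 57.3 and 53.3 against 40.4, 43.0 and 52.1. All Apatinib samples lay above all controls by FPKM, with Apatinib replicate 3 close to control 3, but by CPM they overlapped (78.5 against 81.3). The log2 fold change was 0.28 (95% interval −0.019 to 0.59) with an FDR of 0.192, or 0.494 with controls 1 and 2 summed, and it was 0.16 after the GC correction. PSMB5 itself had an FPKM of 69.4, 58.1 and 62.9 against 60.7, 57.5 and 65.7, which overlap, and a log2 fold change of 0.08 (FDR = 0.715), which was 0.00074 without Apatinib replicate 1 and 0.15 without control replicate 3. In GENCODE 29, 20.6% of the exon bases of PSMB8 also lie in PSMB8-AS1 or PSMB9 on the opposite strand, and without the strand of counting the transcripts cannot be told apart.

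PSMB9, which takes the place of PSMB6, had an FPKM of 81.3, 76.2 and 69.5 against 55.5, 57.2 and 63.3. The groups did not overlap by FPKM or by CPM (97.9, 85.7 and 80.8 against 62.7, 67.9 and 76.1). It was the only proteasome gene that was higher at an unadjusted p under 0.05, with a log2 fold change of 0.35 (95% interval 0.073 to 0.64) and an FDR of 0.0888 in edgeR (range 0.0598 to 0.352, and 0.301 with controls 1 and 2 summed). PSMB6 had an FPKM of 76.7, 70.9 and 74.6 against 66.4, 66.7 and 72.9, with Apatinib replicate 2 below control 3. In GENCODE 29, 5.66% of the exon bases of PSMB9 also belong to PSMB8-AS1 on the same strand.

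PSMB10, which takes the place of the trypsin-like subunit PSMB7, had an FPKM of 19.9, 21.7 and 17.7 against 13.1, 13.6 and 17.1, and was thus the least abundant of the 3. By counts it had 118, 106 and 88 against 89, 89 and 119, which overlap, with a log2 fold change of 0.21 (FDR = 0.497) that was 0.096 without Apatinib replicate 1, 0.32 without Apatinib replicate 3 and 0.0028 after the GC correction. PSMB7 had an FPKM of 104, 94.1 and 94.6 against 90.2, 85.6 and 97.2, which overlap, and a log2 fold change of 0.075 (FDR = 0.72). The value of PSMB7 was −0.0036 without Apatinib replicate 1 and 0.15 without control replicate 3.

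**Figure D3:**
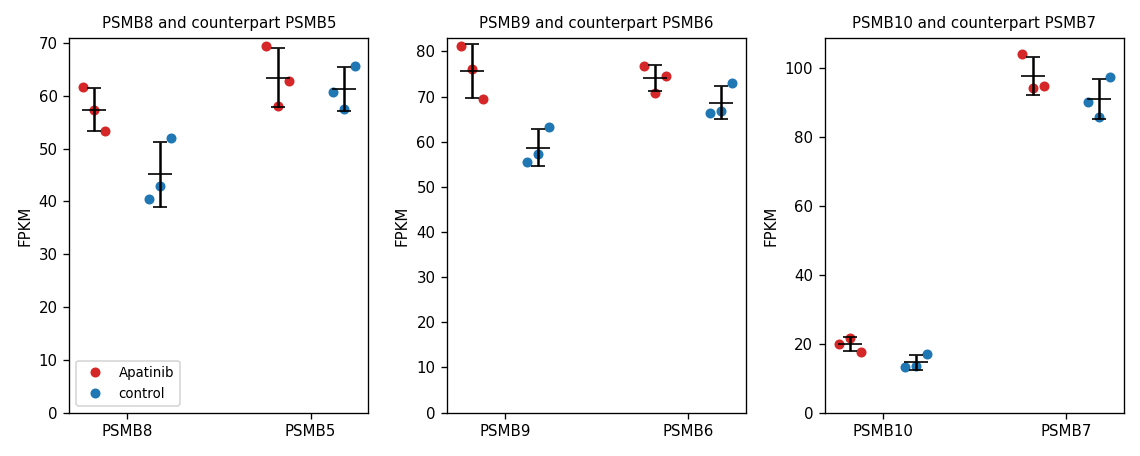
FPKM of each immunoproteasome subunit and the constitutive subunit it replaces, with 1 point for each of the 3 Apatinib and 3 control samples and mean ± SD. PSMB9 lay between 69.5 and 81.3 with Apatinib and between 55.5 and 63.3 in the control.

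The ratio of each of these subunits to its counterpart does not depend on the scaling between libraries. The log2 ratio of PSMB8 to PSMB5 by FPKM was −0.17, −0.021 and −0.24 against −0.59, −0.42 and −0.34. That of PSMB9 to PSMB6 was 0.083, 0.10 and −0.10 against −0.26, −0.22 and −0.20. That of PSMB10 to PSMB7 was −2.38, −2.11 and −2.41 against −2.77, −2.65 and −2.50. In all 3 pairs every Apatinib sample lay above every control, and the immunoproteasome subunit was the scarcer of the pair except for PSMB9 in Apatinib replicates 1 and 2. The differences in mean log2 ratio were 0.30 for PSMB8, 0.26 for PSMB9 and 0.34 for PSMB10, each with an exact permutation p of 0.1 (0.1 after adjustment over the pairs), the smallest that 3 against 3 samples allow. With controls 1 and 2 averaged, an alternative added after seeing the data, they were 0.27, 0.25 and 0.30, with an exact permutation p of 0.1, 0.2 and 0.1. By counts the difference for PSMB10 was 0.12 with an exact permutation p of 0.3, and PSMB10 is among the genes whose counts and FPKM differ. The GC correction was made on counts and not for these ratios. After it the log2 fold changes were 0.0028 for PSMB10 and 0.055 for PSMB7, so that by corrected counts PSMB10 was not above its counterpart. In the other pairs they were 0.16 for PSMB8 and 0.00066 for PSMB5, and 0.25 for PSMB9 and −0.024 for PSMB6. By corrected counts PSMB8 and PSMB9 thus lay above their counterparts, and these differences were not tested.

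The 6 ATPases of the regulatory particle, which unfold the substrate, all had log2 fold changes below 0, with a median of −0.27 beside 0.0028 over all genes, and none was a DEG. Their summed FPKM was 293, 262 and 296 against 337, 328 and 336 (283 ± 18.8 and 334 ± 4.95). The groups did not overlap, and Apatinib replicate 2 was lowest. After the GC correction all 6 were still below 0, with a median of −0.17.

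PSMC6 had the lowest value of the ATPases, with 1119, 973 and 1454 counts against 1759, 1980 and 1656. In CPM these were 65.1, 54.9 and 83.2 against 102, 109 and 75.9, so that Apatinib replicate 3 lay above control 3. The log2 fold change was −0.49 with an FDR of 0.0853 in edgeR (0.0472 in DESeq2, range 0.0205 to 0.418 over all alternatives). PSMC6 passed the DEG rule without Apatinib replicate 3 (log2 fold change −0.67, FDR = 0.0411) and without control replicate 3 (−0.63, FDR = 0.0225), where only the close controls 1 and 2 are left. It did not pass without Apatinib replicate 2 (−0.35, FDR = 0.191), with controls 1 and 2 summed (−0.42, FDR = 0.276) or after the GC correction (−0.17, FDR = 0.418).

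PSMC4 had the highest value of the ATPases, with 118, 95.3 and 95.6 CPM against 100, 101 and 119. The groups overlapped, the log2 fold change was −0.051 (FDR = 0.832), and leaving out 1 sample moved it from −0.16 without Apatinib replicate 1 to 0.037 without control replicate 3. PSMC2, PSMC3 and PSMC5 had log2 fold changes of −0.30 (FDR = 0.0951), −0.24 (FDR = 0.254) and −0.30 (FDR = 0.145). After the GC correction PSMC3 and PSMC5 had an FDR of 0.043 and 0.0446 in edgeR with log2 fold changes of −0.37 each, under the fold limit, over ranges of 0.043 to 0.491 and 0.0446 to 0.368. The value of PSMC3 was −0.14 without Apatinib replicate 2 and that of PSMC5 was −0.20. PSMC1 shares 75.8% of its exon bases with NRDE2 on the opposite strand, and whether its counts hold fragments of NRDE2 was not tested.

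The 14 non-ATPase genes had a median log2 fold change of −0.067, with 9 below 0 and no DEG, and a summed FPKM of 538 ± 6.16 with Apatinib and 561 ± 8.6 in the control. PSMD12, a lid subunit, had the lowest value, with 83.1, 56.4 and 90.3 CPM against 105, 110 and 98.4. By CPM all Apatinib samples lay below all controls, Apatinib replicate 2 by the most, but by FPKM Apatinib replicate 3 (16.7) lay above control 3 (15.4). Its log2 fold change was −0.45 with an FDR of 0.0898, or 0.249 with controls 1 and 2 summed. The value was −0.27 without Apatinib replicate 2 and −0.16 (FDR = 0.558) after the GC correction. PSMD1, the large scaffold subunit, and PSMD14, the enzyme that cuts ubiquitin chains from the substrate, also had groups without overlap by CPM, PSMD1 also by FPKM, with log2 fold changes of −0.34 (FDR = 0.0869) and −0.32 (FDR = 0.104). PSMD9, a chaperone of ATPase assembly, had the highest value of these genes, 0.27 (FDR = 0.453), from 106, 104 and 70 counts against 83, 64 and 108, which overlap. By FPKM, at 11.3, 11.3 and 8.97 against 8.48, 8.11 and 8.09, they do not, and PSMD9 is among the genes whose counts and FPKM differ. Its value was 0.13 without control replicate 2 and 0.45 without Apatinib replicate 3.

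Of the PSME activators, 2 of 4 had log2 fold changes below 0, with a median of −0.063 and no DEG. PSME4, a nuclear activator, was lowest, with 101, 109 and 125 CPM against 130, 133 and 117, a log2 fold change of −0.18 (FDR = 0.349) and, after the GC correction, one of 0.075. PSME1, a subunit of the activator that interferon induces, was highest, with 253, 200 and 220 CPM against 197, 182 and 236, and a log2 fold change of 0.13 (FDR = 0.563). PSME2, its partner in the same activator, had one of −0.13 (FDR = 0.465), or −0.078 without Apatinib replicate 2. The groups overlapped for all 3 genes. PSME4 was at −0.11 without Apatinib replicate 1 and −0.27 without Apatinib replicate 3, and PSME1 at 0.038 without Apatinib replicate 1 and 0.25 without control replicate 3.

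PSMF1, an inhibitor of the core in vitro, had 180, 163 and 142 CPM against 137, 133 and 164, which overlap, while its FPKM of 30.2, 31.4 and 28.9 against 26.3, 24.6 and 27.5 does not. It had a log2 fold change of 0.16 (FDR = 0.454) that was 0.079 without Apatinib replicate 1 and 0.26 without control replicate 3. The 4 PSMG chaperones of core assembly had a median of 0.077, with 1 below 0. PSMG2 was lowest, with 35.7, 30.1 and 37.4 CPM against 40.3, 38.5 and 38.2, without overlap by CPM but with overlap by FPKM (log2 fold change −0.18, FDR = 0.374, or −0.087 without Apatinib replicate 2). PSMG3 was highest, with 47.9, 44.6 and 45.2 CPM against 39.6, 39.5 and 43.5, without overlap by either measure (0.17, FDR = 0.368), and its value was −0.0052 after the GC correction.

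**Figure D4:**
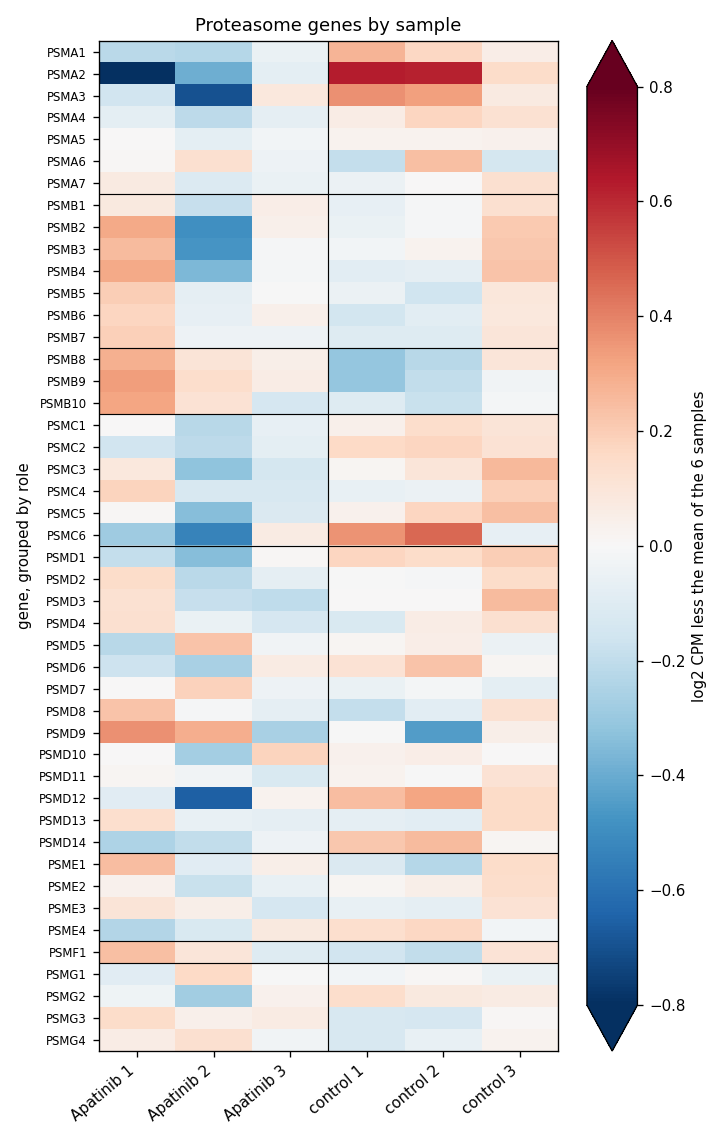
Log2 CPM of each proteasome gene in each sample, less the mean of the 6 samples, with genes ordered by role and samples by group. Apatinib replicate 2 had the lowest value for 22 of the 46 genes.

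The samples of a group were not alike for these genes. By the chi-square per gene over the 46 proteasome genes, Apatinib replicate 3 was closer to control 1 (9.96) and control 2 (12.4) than to Apatinib replicate 1 (15.9) or 2 (24.5), and Apatinib replicate 1 was about as close to control 3 (16.6) as to Apatinib replicate 3. Over all genes Apatinib replicate 3 was closest to Apatinib replicate 1 (18.2), ahead of control 3 (26.5). Apatinib replicate 2 was the lowest of the 6 samples for 22 of the 46 proteasome genes (47.8%), against 21.6% of all genes tested. Apatinib replicate 1 and control 3 were each the highest for 14 (30.4%), against 24.8% and 12.1% of all genes. The chi-square scales libraries by their total counts, without the TMM factors, and it grows with the counts of a gene. Those factors were 0.952 for Apatinib replicate 1, 1.01 for Apatinib replicate 3 and 1.02 for control 1. These values describe single libraries, and what set them apart was not tested.

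The fold changes followed the GC content of the transcripts. Over the 45 proteasome genes with a GC content, the correlation with the log2 fold change was 0.666 (Pearson; Spearman 0.665), and over 15819 genes it was 0.396 (Spearman 0.445). The genes share libraries and are not independent replicates. The 15 proteasome genes with the lowest GC content (39.5% to 44.4%) had a median log2 fold change of −0.30 with 13 below 0, beside −0.22 for the 3129 genes in the same range. The 15 in the middle had one of −0.032 with 9 below 0 (−0.0033 for all genes in that range), and the 15 with the highest GC content (51.7% to 61.9%) had one of 0.10 with 5 below 0 (0.13 for all). These medians lay near those of all genes of like GC content, which does not hold for every gene or group. After the GC correction the regulatory genes had a median of −0.12 with 18 of 24 below 0. The core genes then had a median of 0.0017 with 7 of 16 below 0, and the alpha ring had 4 of 7 below 0. PSMC3 and PSMC5, with a GC content of 55.2% and 52.1%, had lower values after the correction than before it. PSMA1, PSMC2, PSMD1 and PSMD14 have a GC content of 44.2%, 42%, 43% and 44.4%. Their values above are without the correction, in a range where all genes had a median of −0.22.

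PSMA2 had the lowest GC content of the proteasome genes tested, 39.5%. With a correction for GC content, added after seeing the data, its log2 fold change was −0.55 with an FDR of 0.0816, so no proteasome gene was a DEG. The median of the lowest GC group was then −0.10, and those of the alpha ring and of PSMB8, PSMB9 and PSMB10 were −0.13 and 0.16. The correction also moved PSMC4 to −0.18, PSMG2 to −0.065, PSME1 to 0.042, PSMF1 to 0.10, PSMA6 to 0.17, PSMB5 to 0.00066 and PSMB6 to −0.024. The GC content is a property of the gene and the correction removes any response that follows it, so a technical trend and a response of genes with low GC content cannot be told apart.

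**Figure D5:**
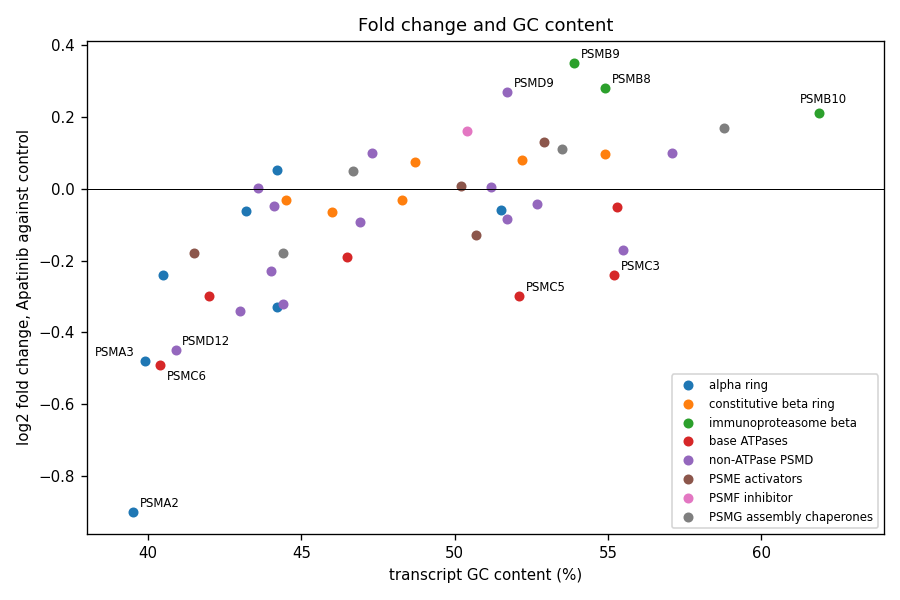
Log2 fold change (Apatinib over control) against the median GC percent of the transcripts for each proteasome gene tested that has a GC content. The correlation was 0.666 over 45 genes, of which PSMA2 has the lowest GC content, 39.5%.

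In the promoter table of RefSeq, which holds 35116 windows from 250 bases before to 50 after a start, 42 of the 48 names matched with 51 windows. TGACNNNGC was found in 15 of them (29.4%, against 13.3% of all windows), in 3 of 20 windows of core genes (15%) and 10 of 25 of regulatory genes (40%). TTCNNNGAA was found in 8 (15.7%, against 7.66%), GAAANNGAA in 8 (15.7%, against 8.11%) and CCAAT in 20 (39.2%, against 34.6%). GAAANNGAA was present for PSMA4, PSMB4, PSMB8, PSMB10, PSMC2, PSME1, PSME2 and PSMG4. In the 51 windows no base belonged to matches of different motifs.

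Of 38 other genes of the pathway, taken from lists of associated subunits, bound proteins, transcription factors, the p97 complex, ubiquitin shuttles, ubiquitin genes and antigen processing, 0 were higher DEGs in edgeR (against 5.97% of all genes) and 2 were lower (against 5.48%). At an unadjusted p under 0.05, 2 were higher (5.26%, against 15.3% of all genes) and 6 lower (15.8%, against 15.3%). The median log2 fold change of the 38 was −0.0025. UCHL5, a deubiquitinase of the regulatory particle, had 498, 595 and 670 counts against 854, 1053 and 905. The groups did not overlap in counts, and UCHL5 fell (log2 fold change −0.56, FDR = 0.0401, range 0.0101 to 0.239). UBA6, a ubiquitin-activating enzyme, had 801, 890 and 1071 counts against 1542, 1759 and 1352 and also fell without overlap in counts (−0.65, FDR = 0.0354, range 0.00102 to 0.192). After the GC correction their values were −0.18 and −0.19. By FPKM the groups overlapped for both, with Apatinib replicate 3 above control 3 (11.2 against 11 for UCHL5 and 4.85 against 4.77 for UBA6), and limma on FPKM gave an FDR of 0.109 and 0.106.

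The calls of these genes were lost on leaving out single samples. The FDR of UCHL5 was 0.12 without Apatinib replicate 1, 0.0699 without Apatinib replicate 2, 0.137 when control 1 was left out, 0.204 without control replicate 2 and 0.155 with controls 1 and 2 summed. That of UBA6 was 0.105, 0.0737, 0.142, 0.169 and 0.149 in the same settings.

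NFE2L1, the transcription factor that raises proteasome genes when proteasome activity is low, had 533, 521 and 419 CPM against 398, 393 and 467. Apatinib replicate 3 lay below control 3, and the log2 fold change was 0.23 (FDR = 0.282), or 0.099 after the GC correction. POMP, the chaperone of beta ring assembly, had 49.2, 34.0 and 52.1 CPM against 60.7, 56.1 and 57.8, without overlap, with a log2 fold change of −0.37 (FDR = 0.142) that was −0.19 without Apatinib replicate 2 and 0.13 after the GC correction. Its low value in Apatinib replicate 2 is like that of PSMB3 and PSMD12.

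Of the interferon genes, IRF1, a transcription factor that acts on PSMB8 and PSMB9, had 80.4, 157 and 56.3 CPM against 68.3, 62.3 and 66.8. Apatinib replicate 2 alone was high, and the log2 fold change of 0.57 (FDR = 0.196, range 0.00238 to 0.824) was 0.057 without Apatinib replicate 2 and 0.85 without Apatinib replicate 3 (FDR = 0.0436). TAP1, the neighbour of PSMB9, had an FPKM of 31.4, 31.8 and 27.6 against 21.8, 22.0 and 24.2, without overlap, and a log2 fold change of 0.40 with an FDR of 0.0582 in edgeR (0.0366 in DESeq2, range 0.0347 to 0.26, and 0.24 with controls 1 and 2 summed). It passed the FDR limit without control replicate 3 (0.0347). PSMB8, PSMB9 and TAP1 thus had values above 0, and IRF1 was high in 1 sample.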

How the data were processed

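The authors deposited raw counts, which are whole numbers, and FPKM for the 6 samples. The submitters' processing notes name CASAVA, STAR 2.7.1a and hg19. The counting program, its strand setting and the annotation are not given in the sources used here. 1 column of the deposited values, headed with another sample's label, was not used. Counts were fitted in R 4.3.3 with edgeR 4.0.16 (filterByExpr, TMM factors 0.952 to 1.03, quasi-likelihood F test of Apatinib against control, no block, Benjamini-Hochberg adjustment over 16290 genes). The biological coefficient of variation was 0.149, and 3 counts corresponded to 0.137 to 0.175 CPM. Pair ratios used log2(FPKM + 0.1) and an exact permutation test. GC content, transcript length and exon overlap came from GENCODE 29. The scripts were tested on simulated data.

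The alternatives were DESeq2 1.42.0, RLE size factors in edgeR, no filter on low counts, a minimum of 10 counts per sample, a block for the replicate number, limma 3.58.1 with trend for genes whose mean FPKM exceeded 0.5 (as log2 of FPKM + 1 or FPKM + 0.1), leaving out each sample, and controls 1 and 2 summed. The GC correction (loess with a span of 0.3 as an offset) and, for the pair ratios, the mean of controls 1 and 2 were added after seeing the data. Chi-square values used genes whose pair of libraries held 50 or more counts, scaled by total counts without TMM factors.

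The members and lists were chosen with earlier results of these data known. Values in every sample are given for members past the DEG rule or the FDR limit, for PSMB5 to PSMB10 and for the highest and lowest member of each subunit group, and for pathway genes past the FDR limit, NFE2L1, POMP, IRF1 and TAP1. Some pathway genes under this rule are not reported here. PSMA3 is described and PSMC3, PSMC5 and PSME2 are named after their values were seen, as are the markers past the FDR limit. The file names SEM1 as SHFM1, ECPAS as KIAA0368 and UFD1 as UFD1L.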

Additional observations from a re-analysis of the deposited data

How the results depend on the processing

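Among the proteasome genes, 0 were higher DEGs in all 15 alternative settings. The count of lower DEGs, 1, was 2 with the replicate block (PSMA2 and PSMA3), 0 with limma on log2(FPKM + 1), 0 with limma on log2(FPKM + 0.1), 0 with the GC correction and 0 with controls 1 and 2 summed, and it lay between 0 and 3 on leaving out 1 sample. The count at an FDR under 0.05 alone, 1, was 2 with DESeq2 (PSMA2 and PSMC6), 4 without a filter on low counts (also PSMA3 and PSMD12), 2 with the replicate block, 0 with limma in both forms, 2 with the GC correction (PSMC3 and PSMC5), 0 with controls 1 and 2 summed, and 0 to 3 on leaving out 1 sample. Leaving out a sample or summing the controls leaves fewer samples; for the other settings the cause was not tested. Core, regulatory and immunoproteasome medians stayed within 1 SD (0.11, 0.076 and 0.14) of their values in every setting. This limit is wide, since 0.11 exceeds the size of the core median, −0.032, and the changes of sign of that median lay within it.

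Signs reversed under the GC correction for POMP (0.13), PSMB6 (−0.024), PSME4 (0.075) and PSMG3 (−0.0052), and the cause was not tested. On leaving out 1 sample the values ranged from −0.03 to 0.20 for PSMA6, −0.30 to 0.053 for PSMB3, −0.0036 to 0.15 for PSMB7 and −0.16 to 0.037 for PSMC4. Of the comparisons for the 33 single genes, 408 kept their direction and side of the threshold, 56 lost a call, 14 gained one and 11 reversed. Most of these genes had no call to lose, so the 408 do not show that calls were stable. All 56 losses fell on CDH5, COL1A2, FN1, LPL, PSMA2, UBA6, UCHL5 and VWF. PSMA2, UBA6 and UCHL5 each lost their call in 8 of 15 settings, and FN1 in 10 of 15.

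Replicate numbers were not treated as pairs, since the correlations of the same numbers across groups were −0.259, 0.0808 and −0.22. Over all genes the number of DEGs was 1866, and it was 796 and 810 with the limma settings, 1360 with the GC correction, 292 with controls 1 and 2 summed, 795 without Apatinib replicate 1, 275 without control replicate 1 and 300 without control replicate 2. It was higher than 1866 without control replicate 3 (2594), without the filter (2559), with the replicate block (2215), with DESeq2 (2054) and without Apatinib replicate 3 (2030). The low counts of PSMA2, PSMA6, PSMB10 and PSMD9 limit the precision of their fold changes.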
